A study of Danio rerio with 80 samples.

Results

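The 8 control libraries of a zebrafish (*Danio rerio*) exposure study were used to describe normal development between 48 and 72 h post-fertilization (hpf). They were chosen by their labels alone, as the DMSO controls of each time, and make up 8 of the 80 libraries in the series. All 8 came from whole animals of the 5D wildtype strain, dechorionated, kept in 1% DMSO at 28 °C in the dark, and carried no other agent or allele. Each library was made from a pool of 6 embryos, with 4 pools at 48 hpf and 4 at 72 hpf, named A to D at each time. The other 72 libraries held embryos exposed to a polycyclic aromatic hydrocarbon (benzo[a]pyrene or its 6-methyl or 8-methyl form), and 16 of them enter only where stated. The control embryos of both times came from 1 plate, living embryos were drawn at random, and the 4 pools sequenced were those with the most concentrated RNA of 5 collected. The pools are thus samples of 1 plate, and p-values measure the spread between pools. The letters name pools and do not pair them across times. The times were compared here to show which genes rose and fell in unexposed embryos, the background against which the exposures of the study were run.

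The zebrafish embryo passes through the hatching period in these hours and becomes an early larva. As background, the retina lays down its photoreceptors, the liver, exocrine pancreas and gut take on their functions, the jaw and gill arches form cartilage, and many neural and other progenitor cells leave the cell cycle. The yolk is still the food supply, and the first wave of red blood cells, which carries embryonic globins, is still in circulation.

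Messenger RNA was read from its 3′ end (bulk RNA barcoding and sequencing, BRB-seq), and values are whole-number counts per gene. The libraries held 5353245 to 6006143 counts at 48 hpf and 6062436 to 7811015 at 72 hpf. A normalized count is the count scaled to the mean effective depth of the 8 libraries, 6359153 counts, so that 1 normalized count is close to 1 read. At least 5 reads were seen for 13694 to 14163 genes at 48 hpf and for 14582 to 15153 at 72 hpf, so depth and the number of genes read moved with time. Of 29 marker genes of 10 tissues, 20 were matched by symbol, and all 20 had reads in all 8 libraries. RNA was diluted to 1 concentration before sequencing, so values are shares of the RNA of a pool. In whole embryos, a change in the number of cells of a type and a change in RNA per cell cannot be told apart. Values are given for pools A to D in order, or as mean ± SD (n = 4 pools). Log2 fold changes are 72 minus 48 hpf, ± SE, with adjusted p from edgeR's quasi-likelihood test over all genes tested. Symbols in capitals, such as *SYCN*, are those of the human counterpart that the reference table gives for the zebrafish gene ID printed beside them.

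A minimum of 5 reads in each of 2 or more libraries was met by 15992 genes, of which 4168 differed between the times at an adjusted p at or under 0.05. Of the genes tested, 2309 (14.4%) were higher at 72 hpf and 1859 (11.6%) were lower. The counts were near balance, but the sizes were not. Changes of at least 2-fold were seen in 1289 genes that rose (8.06% of those tested) and 407 that fell (2.55%). At 16-fold or more the counts were 199 and 15, and at 64-fold or more 38 and 3. The median log2 fold change was 1.15 over the genes that rose, -0.65 over those that fell and 0.01 over all genes tested. No read was seen at 48 hpf for 70 of the genes that rose, and none at 72 hpf for 7 of those that fell. Such genes passed the read minimum through the other time alone, which fixed their direction. Beyond the test, the 4 values of each time did not overlap for 4139 genes tested (25.9%), 3456 of which were also called. Lack of overlap was a condition for naming genes as the greatest increases and decreases, and is no result for those genes. The first principal component, 68.5% of the variance, separated the times. With every library thinned to the depth of the smallest, 2231 genes were higher and 1804 lower. A test against a 2-fold change (edgeR's glmTreat) in place of the estimated fold called 570 genes higher and 82 lower. In the simulated comparison, 200 of 15992 genes were changed. The test found 16 of 50 genes changed by 1.5-fold and 30 of 50 changed by 2-fold, so small changes were missed more often than large ones. With so few changed genes the adjusted threshold is stricter than where 4168 are called. These shares thus do not measure what the control comparison could find.

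**Figure D1:**
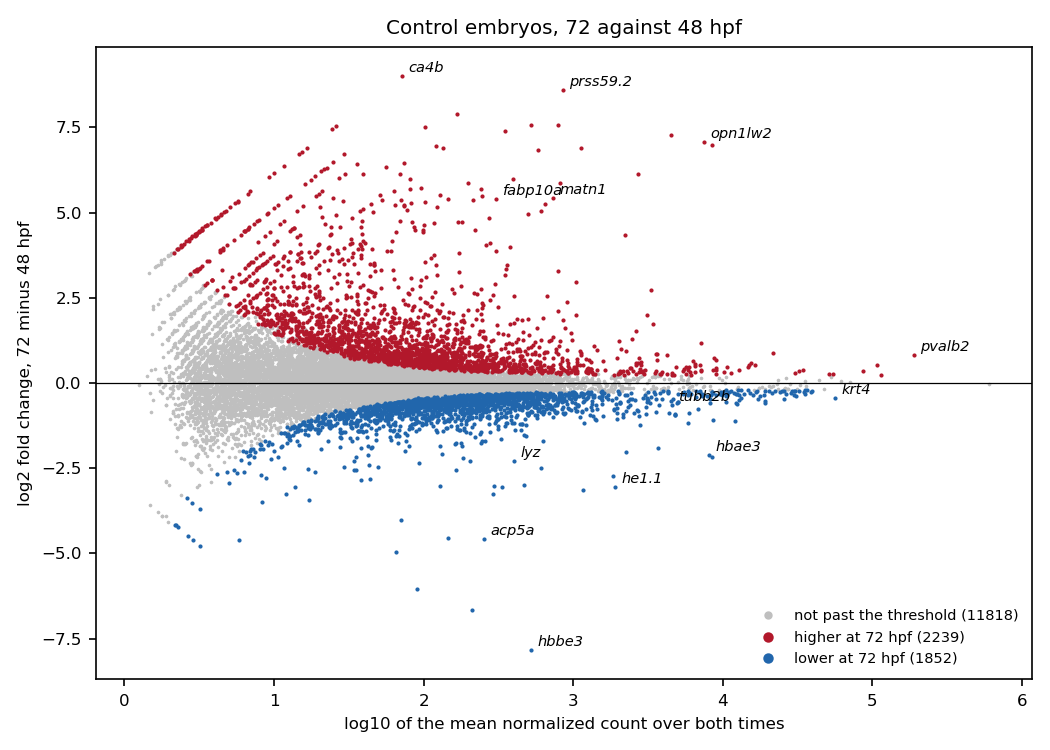
Log2 fold change (72 minus 48 hpf, y axis) against log10 of the mean normalized count over both times (x axis), 1 point per tested gene with reads at both times, for 4 control pools per time. Of these points 2239 are higher at 72 hpf (red), 1852 are lower (blue) and 11818 did not pass the threshold (grey), and the red points reach larger changes than the blue ones.

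The genes were read through 57 lists of organs, cell types, pathways and families. The lists were chosen with earlier results of these data known, so their shares are descriptions and not independent of the data. For each list the members matched to a gene ID and tested are counted, and the share called is to be set beside 14.4% higher and 11.6% lower over all genes. No list was tested as a set. In any list, a member with under 5 reads in each pool of a time passed the read minimum through the other time alone. The direction of such a member was thus largely fixed, and the counts and medians of the lists include it.

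**Figure D2:**
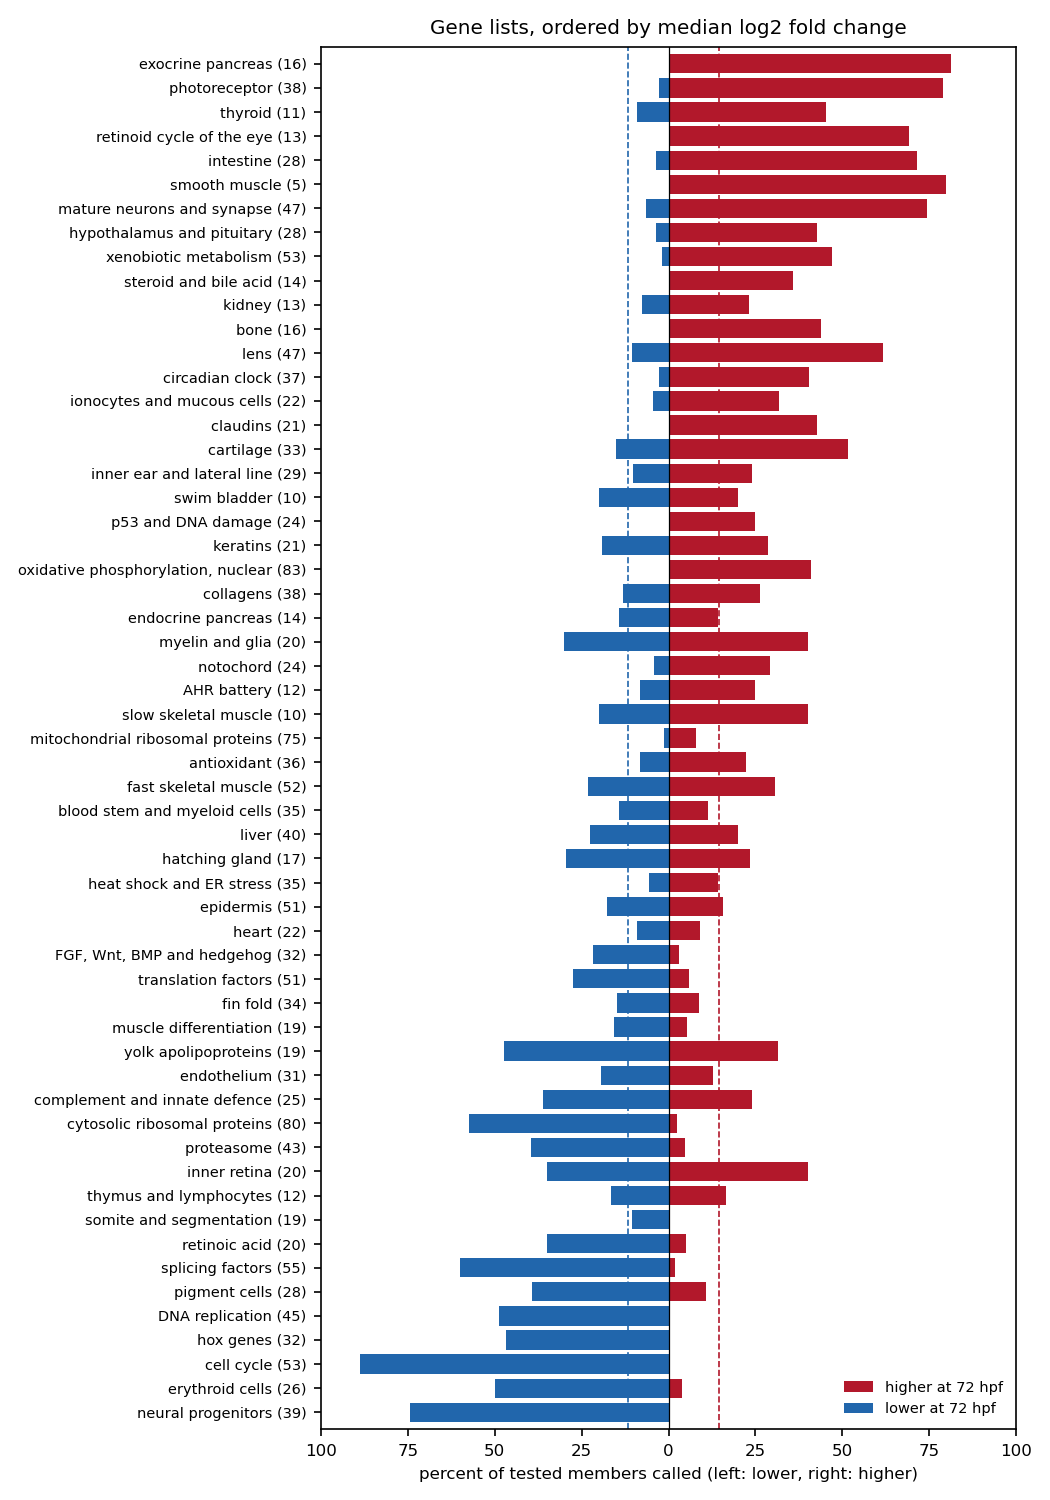
Percent of the tested members of 57 gene lists that were higher (red, right) or lower (blue, left) at 72 hpf, ordered by median log2 fold change, with the number of tested members in parentheses. Dashed lines mark the share over all 15992 genes tested, 14.4% higher and 11.6% lower; exocrine pancreas and photoreceptor genes stand at the top and neural progenitor, erythroid and cell cycle genes at the bottom.

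Digestive enzymes of the exocrine pancreas were among the largest rises. Of 22 matched genes of the list, 16 were tested, 13 rose, all by at least 2-fold, and 0 fell, with a median log2 fold change of 4.84. Members such as *ctrb.3* and *ctrl*, with under 5 reads in each 48 hpf pool, passed the read minimum through 72 hpf alone. Their direction was thus largely fixed. With the filterByExpr filter, which tests fewer genes, 8 rose. Their summed counts, scaled to a library total of 1000000 (CPM), went from 13.2 ± 3.74 to 726 ± 189.7. The trypsin gene *prss59.2* (ENSDARG00000073742) had 5.97, 4.15, 4.37 and 3.38 normalized counts at 48 hpf and 1501, 1628, 2315 and 1391 at 72 hpf. All 4 pools of 72 hpf were far above all 4 of 48 hpf, a rise of 385-fold (log2 fold change 8.59 ± 0.22, adjusted p = 1.2e-25). *prss1*, another trypsin, had 20.3, 24.9, 30.6 and 56.3 normalized counts at 48 hpf, with pool D highest, and 915, 1390.3, 1652 and 1069 at 72 hpf (38.1-fold, adjusted p = 1.7e-20). Its groups were also apart. A further trypsin, *prss59.1*, went from 9.50 ± 9.38 to 470.4 ± 204 normalized counts (51.1-fold, and 92.8-fold without pool A of 48 hpf). Chymotrypsin genes rose with them. *ctrb.3* went from 1.101 ± 1.54 to 202 ± 74.6 normalized counts, 182-fold, or 544-fold without pool C of 48 hpf. *ctrl* went from 1.91 ± 1.78 to 239.7 ± 43.2, 124-fold, or 211-fold without pool B of 48 hpf. These 48 hpf levels rested on a few reads. Syncollin, a protein of zymogen granules, is encoded by *SYCN* (ENSDARG00000103687), which had no read at 48 hpf and 39.2, 55.9, 83.1 and 44.1 normalized counts at 72 hpf. Against a floor of 3 reads over the 4 pools, this was at least 66.8-fold higher. The astacin-family protease *c6ast4* also had no read at 48 hpf and 9.53, 15.23, 54.8 and 32.1 normalized counts at 72 hpf, at least 33.5-fold higher. The prss59 and ctrb genes have near-identical copies, and how reads were divided between copies is not given in the sources used here, so values of single copies are uncertain.

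Of 14 tested genes of the endocrine pancreas, 2 rose and 2 fell, near the shares over all genes (median log2 fold change 0.18). Insulin (*ins*) had 269, 207, 238 and 219 normalized counts at 48 hpf and 237, 287, 250.3 and 288 at 72 hpf. The groups overlapped, and the log2 fold change was 0.19 ± 0.13 (adjusted p = 0.29). The transcription factor gene *neurod1* went from 459 ± 62.2 to 531 ± 51.9 (adjusted p = 0.19). *pcsk1nl*, an inhibitor of prohormone convertase in mammals, rose 2.01-fold, from 146 ± 16.4 to 294 ± 34.9.

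Liver genes divided. Of 40 tested genes of 43 matched, 8 rose and 9 fell, the median log2 fold change was 0.00, and the summed level was 4098 ± 226 CPM at 48 hpf and 4310.5 ± 355 at 72 hpf. The liver fatty acid binding protein gene *fabp10a* (ENSDARG00000038439) had 26.3, 5.18, 12.01 and 14.7 normalized counts at 48 hpf and 613, 681, 664 and 416 at 72 hpf. The lowest pool of 72 hpf, D, was far above the highest of 48 hpf, A, and the rise was 41.8-fold (log2 fold change 5.38 ± 0.22, adjusted p = 1.6e-19). Transthyretin (*ttr*), a carrier of thyroid hormone, had a read in only 1 pool of 48 hpf and 47.7, 55.0, 70.4 and 32.1 normalized counts at 72 hpf, 184-fold. The urate oxidase gene *uox* rose 13.6-fold and *rbp4*, the plasma carrier of retinol, rose 1.65-fold. Outside the list, *serpinf2a*, named for an inhibitor of plasmin, went from 0.52 ± 1.04 to 58.0 ± 21.9 normalized counts, 105-fold. Plasma proteins that fell were complement *c3a.1* (1.77-fold lower, from 1360.0 ± 113 to 766 ± 88.2), factor B (*cfb*, 1.65-fold lower, with groups that overlapped by less than 1 normalized count) and plasminogen (*plg*, 1.62-fold lower). The abundant transferrin gene *tfa* did not pass the test. It had 3007, 2634, 2926 and 5018 at 48 hpf, with pool D well above the other 3, and 3328, 5392, 3814 and 3918 at 72 hpf (adjusted p = 0.15).

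Of 28 tested genes of the intestine, 20 rose, 17 of them by at least 2-fold, and 1 fell (median log2 fold change 1.29). Members such as *fabp6* and *slc5a1*, with under 5 reads in each 48 hpf pool, passed the read minimum through 72 hpf alone. The direction of such members was thus largely fixed. The bile acid binding protein gene *fabp6* had 3.58, 1.04, 4.37 and 0 normalized counts at 48 hpf and 95.3, 55.9, 160.4 and 32.9 at 72 hpf. These 72 hpf pools spread widely but lay above every 48 hpf pool (38.4-fold, and 58.0-fold with libraries thinned to 1 depth). *fabp2*, an intestinal fatty acid binding protein, was already at 1214 ± 256 at 48 hpf and rose 2.34-fold to 2841 ± 717. The glucose transporter *slc5a1* went from 0.3 ± 0.6 to 11.1 ± 6.60 normalized counts, 39.7-fold on few reads. The steroid and bile acid list, which also holds *fabp6* and so is not separate from the intestine list, had 5 of 14 tested higher, all by at least 2-fold, and 0 lower. Among them *cyp7a1*, the rate-limiting enzyme of bile acid synthesis, had 3.58, 2.07, 3.28 and 0 normalized counts at 48 hpf and 45.5, 58.4, 61.6 and 16.1 at 72 hpf, 20.3-fold, with pool D again the lowest at 72 hpf.

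Apolipoprotein and other yolk layer genes went both ways. Of 19 tested, 6 rose and 9 fell, and the summed level went from 32180.3 ± 1918 to 28948 ± 501 CPM. The antifreeze-like gene *afp4* (ENSDARG00000041490) had 409.7, 501, 532 and 669 normalized counts at 48 hpf and 78.4, 60.1, 77.3 and 48.1 at 72 hpf. This was 8.09-fold lower (log2 fold change -3.02 ± 0.16, adjusted p = 9.9e-17). *apobb.2*, an apolipoprotein B gene, fell 4.57-fold from 299.7 ± 42.4 to 65.3 ± 13.4, and *apoc1* fell 2.13-fold from 11747 ± 1345 to 5509.9 ± 702. The high-density lipoprotein genes *apoa2* and *apoa1a*, both among the most read genes of the embryo, did not pass the test. *apoa2* had 60134 ± 5064 normalized counts at 48 hpf and 62521 ± 7067 at 72 hpf (adjusted p = 0.66). *apoa1a* had 50532 ± 3269 and 44613 ± 5602 (adjusted p = 0.094). *apoa4b.3*, one of a run of near-identical copies and so uncertain, rose 5.09-fold from 13.32 ± 9.02, and *ttc36* rose 2.95-fold.

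Smooth muscle, swim bladder and kidney lists were short. Smooth muscle had 4 of 5 tested genes higher and 0 lower, and its summed level was 2.13-fold higher at 72 hpf. The smooth muscle actin gene *acta2* had 33.5, 34.2, 43.7 and 44.0 normalized counts at 48 hpf and 491, 514, 746 and 527 at 72 hpf. All 72 hpf pools were above all 48 hpf pools, with pool C highest (14.7-fold, log2 fold change 3.87 ± 0.16, adjusted p = 1.6e-19). The tropomyosin genes *tpm1* and *tpm2* rose 5.16-fold and 1.81-fold. In the swim bladder list 2 of 10 tested genes rose and 2 fell. They were *acta2* again and the annexin gene *anxa5b* (2.02-fold higher), while *sox2*, a transcription factor also of neural progenitors, fell 1.69-fold. Kidney genes numbered 3 higher and 1 lower of 13 tested.

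The photoreceptor list had the highest median of all lists with as many tested genes or more. Of 44 matched genes 38 were tested. 30 rose, all by at least 2-fold, and 1 fell, with a median log2 fold change of 4.53. Members such as *grk1b* and *guca1aa*, with under 5 reads in each 48 hpf pool, passed the read minimum through 72 hpf alone. The direction of such members was thus largely fixed. The summed level of the list was 638, 717, 605 and 603 CPM in the pools of 48 hpf and 8076, 7589.9, 7968 and 6581 in those of 72 hpf, 11.8-fold higher. Opsins are the light-absorbing proteins of these cells, and cone opsin genes rose together. The red cone opsin *opn1lw2* (ENSDARG00000044861) had 80.03, 146, 107 and 108 normalized counts at 48 hpf and 14969, 15814, 15303 and 13645 at 72 hpf. The 2 groups differed by 135-fold with little spread (log2 fold change 7.07 ± 0.13, adjusted p = 7.5e-30). The green cone opsin *opn1mw1* had 5.97, 9.33, 12.01 and 5.63 at 48 hpf and 2001, 1416, 1744 and 1126 at 72 hpf (189-fold, adjusted p = 1.6e-24). The blue cone opsin *opn1sw2* had 7.17, 15.6, 18.6 and 33.8 and 2245, 2212, 2502 and 2003 (119-fold). The gene with the human symbol *OPN1SW* (ENSDARG00000045677) had 51.4, 75.7, 45.9 and 58.6 at 48 hpf and 8632, 8853, 10243 and 8266 at 72 hpf (155-fold). The times did not overlap in any of these 4 opsins, and at 48 hpf the pools differed the most in *opn1sw2*, with pool D highest.

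Downstream of opsin, cone transducin carries the light signal. Its alpha subunit gene *gnat2* had 13.1, 8.29, 8.74 and 10.14 normalized counts at 48 hpf and 1044, 1246, 1180.3 and 1118 at 72 hpf (115-fold, adjusted p = 2.9e-26). The beta subunit gene *gnb3b* went from 5.38 ± 5.87 to 1045 ± 113, 189-fold, or 394-fold without pool B of 48 hpf. The gamma subunit counterpart *GNGT2* (ENSDARG00000103543) had 115, 147, 144 and 127 at 48 hpf and 20023, 15579, 18199.9 and 13634 at 72 hpf (126-fold). Genes that end or reset the response also rose. The opsin kinase gene *grk1b* rose 80.2-fold from 1.37 ± 0.47 to 111 ± 24.2 normalized counts. *guca1aa*, an activator of guanylate cyclase, had no read at 48 hpf and 33.9, 38.9, 61.6 and 18.4 at 72 hpf, at least 45.9-fold higher. Outer segment disks are shaped by peripherin, and 2 IDs with the human symbol *PRPH2* rose, ENSDARG00000014840 by 239.6-fold to 333 ± 46.5 and ENSDARG00000038018 by 119.5-fold to 265 ± 16.5 normalized counts. The member that fell was *unc119b*, a carrier of lipid-modified proteins, from 71.7 ± 16.3 to 48.1 ± 8.07, with groups that overlapped. Its adjusted p of 0.049 passed the threshold narrowly and was lost under 11 alternatives, from 0.0505 with RLE size factors to 0.19 without pool A of 48 hpf.

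Of 13 tested genes of the retinoid cycle, which regenerates the chromophore of opsin, 9 rose and 0 fell. The retinoid carrier gene *rbp3* had 7.17, 5.18, 2.18 and 2.25 normalized counts at 48 hpf and 139.8, 130.3, 202 and 174 at 72 hpf (38.8-fold, adjusted p = 4.7e-16), with no overlap. *rlbp1b*, a retinaldehyde binding protein, was higher at the start and rose 3.60-fold from 198 ± 35.2 to 713 ± 169. Outside the lists, the largest fitted rise among the genes named was that of *ca4b*, a carbonic anhydrase, with 1.13 normalized counts in pool D of 48 hpf, none in the other pools, and 142, 129, 175 and 128 at 72 hpf. This was 516-fold on the fitted scale, and rested on 1 read at 48 hpf. Also outside them, *tcnba*, a transcobalamin gene, had 3.58, 5.18, 2.18 and 5.63 at 48 hpf and 678, 647, 739 and 705 at 72 hpf (166-fold, adjusted p = 6.8e-25). The G protein gamma subunit gene *gng13a*, in no list either, had no read at 48 hpf and 74.1, 51.6, 71.4 and 59.4 at 72 hpf, at least 77.1-fold higher.

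Inner retina genes were split, with 8 of 20 tested higher (5 with filterByExpr), all by at least 2-fold, and 7 lower, none by as much. Those that rose included *nyx* (nyctalopin, a protein of bipolar cells), with no read at 48 hpf and 16.9, 13.5, 10.8 and 8.02 normalized counts at 72 hpf, at least 14.8-fold higher. Those that fell were transcription factor genes such as *PAX6* (ENSDARG00000045936), from 551 ± 57.6 to 342 ± 26.2, and *tfap2a*, which also marks neural crest and skin, from 618 ± 60.1 to 378 ± 31.1.

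The lens list, mostly crystallins, rose in 29 of 47 tested genes, 6 of them by at least 2-fold, and fell in 5. Its summed level went from 19434 ± 839 to 30190.0 ± 1160.0 CPM, 1.55-fold. The most read crystallin, *crygm2d2*, had 15302 ± 1521 normalized counts at 48 hpf and 28088 ± 2440.3 at 72 hpf, 1.84-fold. Its relatives *crygm2d8* and *crygm2d13* rose 1.49-fold and 1.39-fold. *crygm2d11* was low at 48 hpf, with 191, 168, 259.9 and 213, and reached 4995, 4209, 4208 and 3448 at 72 hpf (20.3-fold, adjusted p = 6.4e-24). *crygm2b* went from 1 read in 1 pool to 6.65 ± 4.403 normalized counts. The fiber membrane gene *lim2.3* fell 1.85-fold, from 900.4 ± 61.6 to 487 ± 50.3. Gamma M crystallins have many near-identical copies, and single values are uncertain.

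**Figure D3:**
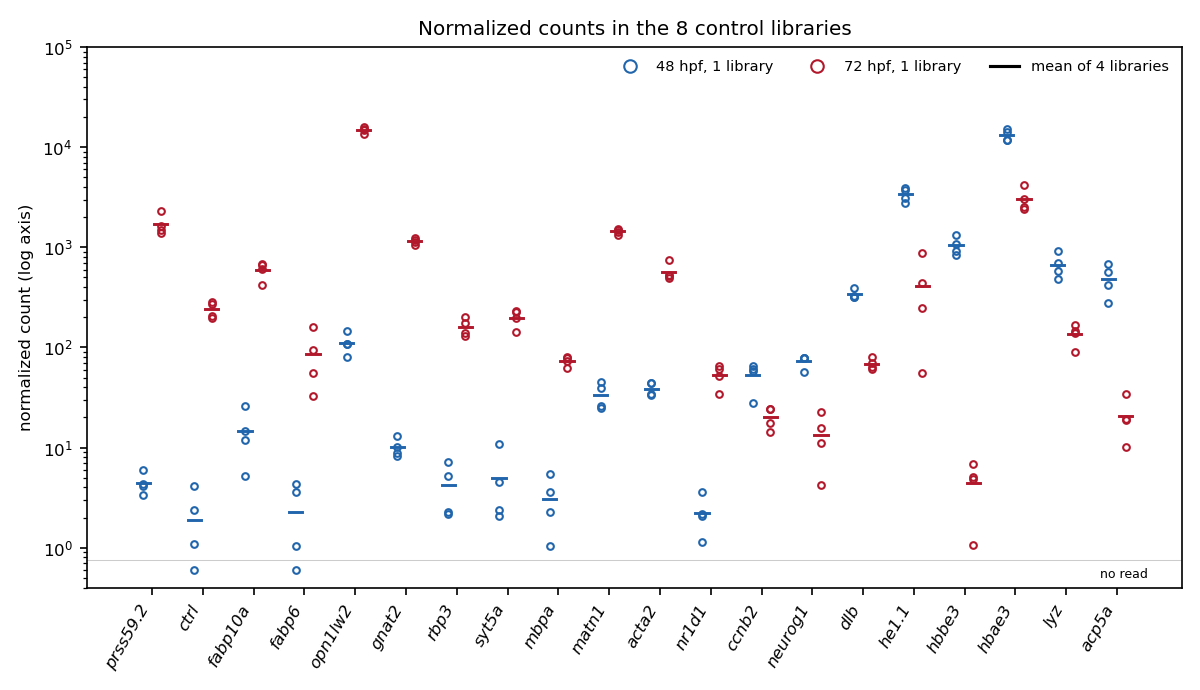
Normalized counts (log y axis) of 20 genes in the 4 control pools of 48 hpf (blue) and the 4 of 72 hpf (red), 1 circle per pool, with bars at the mean of 4 and pools without a read drawn under the grey line. The 48 and 72 hpf circles are apart for each gene shown, from *prss59.2* (4.47 to 1709) to *hbbe3* (1045 to 4.45), and the 72 hpf pools of *he1.1* are spread the most widely. Lack of overlap was a condition for genes named as the greatest increases and decreases, such as *prss59.2*, and is no result for them.

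Genes of cell division fell. Of 53 tested cell cycle genes 47 fell, 21 by at least 2-fold, and 0 rose. The 72 hpf level was below the 48 hpf level in each of the 53 (log2 fold changes -2.80 to -0.40). Their summed level was 3903, 4019, 3777 and 3765 CPM at 48 hpf and 2299.6, 2248, 2205 and 2046 at 72 hpf, 1.76-fold lower with no overlap. *cdc25b*, a phosphatase that drives entry into mitosis, had 221, 175, 214 and 176 normalized counts at 48 hpf and 62.5, 91.4, 64.5 and 73.0 at 72 hpf (2.68-fold lower, log2 fold change -1.42 ± 0.16, adjusted p = 1.4e-08). Cyclin B2 (*ccnb2*) had 65.7, 61.2, 57.9 and 28.2 at 48 hpf, with pool D lowest, and 24.4, 14.4, 17.6 and 24.1 at 72 hpf (2.65-fold lower). *birc5b*, a survivin gene of the dividing chromosome, had 3.58, 1.04, 7.64 and 6.76 at 48 hpf and no read at 72 hpf, at least 6.97-fold lower. Some more abundant members, which weigh heavily in the summed level, fell by less than 2-fold. The chromatin gene *HMGB2* (ENSDARG00000029722) fell 1.87-fold from 3995 ± 339.5, *hmgn2* fell 1.57-fold and the beta tubulin gene *tubb2b* fell 1.57-fold, from 5598 ± 419.8 to 3559.5 ± 75.5.

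DNA replication genes followed, with 22 of 45 tested lower, 2 by at least 2-fold, and 0 higher. The replication licensing factor gene *cdt1* fell 2.38-fold from 49.8 ± 10.8 to 20.9 ± 5.88, and *mcm7*, of the replicative helicase, fell 2.04-fold. The ribonucleotide reductase gene *rrm1* fell 1.96-fold. *pcna*, the clamp of DNA polymerase, had 3769.9, 3725, 3546 and 3488 normalized counts at 48 hpf and 2719, 2698, 2641 and 2466 at 72 hpf, and the groups did not overlap (1.38-fold lower, adjusted p = 5.3e-05). The dUTPase gene *dut* fell 1.48-fold.

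The neural progenitor list fell in 29 of 39 tested genes, 21 by at least 2-fold, and rose in 0 (median log2 fold change -1.02). The proneural factor gene *neurog1* had 77.6, 78.8, 56.8 and 78.9 normalized counts at 48 hpf and 4.24, 11, 15.7 and 22.5 at 72 hpf. The highest pool of 72 hpf was below the lowest of 48 hpf (5.34-fold lower, log2 fold change -2.42 ± 0.31, adjusted p = 1.6e-07). Notch signalling keeps progenitors from differentiating, and its ligand gene *dlb* had 315, 392, 319.9 and 325 at 48 hpf and 69.9, 79.5, 63.6 and 61.0 at 72 hpf (4.94-fold lower, adjusted p = 6.7e-15). A further delta ligand, *DLL1* (ENSDARG00000020219), fell 4.25-fold. The Notch targets *her12* and *her4.4* fell 4.48-fold and 4.35-fold, the latter one of several near-identical copies. Among factors of young neurons, *ebf2* fell 4.01-fold and *SOX11* (ENSDARG00000077811) fell 2.27-fold from 1636 ± 115 to 720.1 ± 61.3. *id1*, an inhibitor of such factors, did not pass the test, with 3760.5 ± 170.3 and 3378 ± 229 (adjusted p = 0.19).

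Genes of mature neurons and synapses rose in 35 of 47 tested, 18 by at least 2-fold, and fell in 3. Summed, they were at 2256, 2302, 2398 and 2564 CPM at 48 hpf and 3191, 3208, 3215 and 3261 at 72 hpf, 1.35-fold higher without overlap. The synaptotagmin gene *syt5a*, whose family senses calcium for vesicle release, had 2.39, 2.07, 10.9 and 4.51 normalized counts at 48 hpf and 195, 232, 227 and 141 at 72 hpf (39.8-fold, or 66.6-fold without pool C of 48 hpf, adjusted p = 4.3e-16). The calcium buffer gene *pvalb7* had 21.5, 11.4, 18.6 and 28.2 and 294, 250.5, 198 and 139 (11.1-fold). The neuronal RNA-binding protein gene *elavl3*, which is on early in young neurons, fell 1.85-fold from 2532 ± 148 to 1366 ± 85.9. Its relative *elavl4* did not pass the test (2182.3 ± 122 and 1989 ± 124, adjusted p = 0.3).

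Glial genes went both ways, 8 higher and 6 lower of 20 tested. Myelin basic protein (*mbpa*) had 3.58, 1.04, 5.46 and 2.25 normalized counts at 48 hpf and 73.1, 80.4, 79.2 and 61.8 at 72 hpf. The times did not overlap (24.1-fold, log2 fold change 4.59 ± 0.37, adjusted p = 6.5e-12). The myelin claudin *cldnk* went from 5.59 ± 5.39 to 62.8 ± 15.11, 11.3-fold, or 21.4-fold without pool D of 48 hpf. The proteolipid genes parted. *plp1b* rose 7.91-fold from 6.87 ± 2.66 to 54.9 ± 13.4, while *plp1a* fell from 275, 260.2, 306 and 282 at 48 hpf to 31.8, 43.1, 56.7 and 57.0 at 72 hpf (5.91-fold lower, adjusted p = 1.7e-14). The apolipoprotein E gene *apoeb*, which marks microglia and the yolk layer, fell 1.83-fold from 7701 ± 2109.8, with pool D of 48 hpf lowest, to 4217 ± 161. Outside the list, the glutamate transporter counterpart *SLC1A2* (ENSDARG00000052138) had reads in 1 pool of 48 hpf and 90.02, 67.7, 57.7 and 69.8 normalized counts at 72 hpf (85.8-fold, adjusted p = 6.0e-12).

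Of 28 tested hypothalamus and pituitary genes 12 rose and 1 fell. Growth hormone (*gh1*) had 7.17, 10.4, 10.9 and 4.51 normalized counts at 48 hpf and 38.1, 35.5, 52.8 and 27.3 at 72 hpf (4.62-fold, adjusted p = 2.1e-05). The neuropeptide gene *vip* went from 3.21 ± 2.68 to 16.1 ± 1.01 (4.89-fold). In the thyroid list 5 of 11 tested genes rose, all by at least 2-fold, and 1 fell. The largest rise was that of *ttr*, which the liver list also holds, so the lists are not separate. *iyd*, which recovers iodide, rose 9.38-fold from 3.83 ± 1.21 to 36.4 ± 7.85. The thyroid hormone response gene *klf9* went from 1 read in 1 pool to 18.4 ± 4.73 normalized counts. *duox*, which supplies hydrogen peroxide for hormone synthesis, fell from 13.1, 19.7, 19.6 and 18.03 at 48 hpf to 2.12, 3.38, 5.87 and 8.02 at 72 hpf (3.58-fold lower, adjusted p = 0.0085).

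Cartilage genes rose more often than they fell, 17 against 5 of 33 tested. The fallers numbered 2 without pool A of 48 hpf or pool B of 72 hpf, and 3 without pool B of 48 hpf or pool A of 72 hpf. The cartilage matrix protein matrilin 1 (*matn1*, ENSDARG00000030215) had 39.4, 25.9, 44.8 and 24.8 normalized counts at 48 hpf and 1413, 1485, 1516 and 1339 at 72 hpf. The spread within a time was small beside the rise of 42.8-fold (log2 fold change 5.42 ± 0.15, adjusted p = 7.7e-25). Otospiralin (*otos*), a protein of the inner ear in mammals, had 4.78, 29.0, 27.3 and 29.3 at 48 hpf, with pool A far below the other 3, and 364, 275, 346 and 298 at 72 hpf (13.98-fold). Collagen 2 alpha 1 (*COL2A1*, ENSDARG00000069093) rose 1.67-fold from 6536 ± 716 to 10894 ± 387. Other members fell. *SOX9* (ENSDARG00000043923), the master factor of cartilage, fell 1.70-fold from 281 ± 36.8 to 165 ± 19.7, and the link protein gene *hapln1a* fell 1.76-fold.

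Bone genes numbered 7 higher and 0 lower of 16 tested. Collagen 10 alpha 1 (*COL10A1*, ENSDARG00000054753), which zebrafish osteoblasts also make, had 394, 332, 419 and 489 normalized counts at 48 hpf and 1052, 989, 1137 and 1001 at 72 hpf (2.56-fold, adjusted p = 9.8e-12). The gap junction gene *gja1b* rose 2.07-fold and *sparc*, a binder of collagen and calcium, rose 1.299-fold from 7499 ± 268 to 9742 ± 197. The abundant collagen 1 genes did not pass the test. *col1a1a* had 9055 ± 557 and 9925 ± 555 (adjusted p = 0.23) and *col1a2* had 6700.0 ± 151 and 6553 ± 259 (adjusted p = 0.82). Over all collagens, 10 of 38 tested genes rose and 5 fell. Without pool B of 72 hpf 6 rose and 3 fell, and 3 fell without pool D of 48 hpf or pool A of 72 hpf. The largest rise and fall among them were those of *col6a4b*, on few reads (0.27 ± 0.55 to 5.696 ± 2.76), and *col28a2a* (330.5 ± 84.0 to 111 ± 6.96, 2.99-fold lower).

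Skeletal muscle supplied some of the most read genes at both times. Of 52 tested fast muscle genes 16 rose and 12 fell, and the summed level went from 80626 ± 2242 to 98495 ± 3794 CPM. Parvalbumin 2 (*pvalb2*), the calcium buffer of fast fibers, had 146796, 127255, 141158 and 129853 normalized counts at 48 hpf and 249197, 241351, 241799.7 and 229345 at 72 hpf. The groups were apart, and the rise was 1.76-fold (adjusted p = 2.6e-12). The myosin heavy chain gene *myhb* rose 16.5-fold, from 38.2, 19.7, 20.8 and 40.6 at 48 hpf to 569.8, 397, 517 and 473 at 72 hpf. The troponin C gene *tnnc2.1* had no read at 48 hpf and 5.30, 7.62, 1.96 and 4.01 at 72 hpf. Other parts of the fiber fell. Troponin T (*TNNT3*, ENSDARG00000030270) fell 2.25-fold from 8043 ± 961 to 3568 ± 158, and the myosin binding protein gene *mybpc2b* fell 2.58-fold. *actc1b* and *tpma* did not pass the test (log2 fold changes 0.08 ± 0.07 and 0.17 ± 0.07).

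Slow muscle genes numbered 4 higher and 2 lower of 10 tested. The slow myosin gene *smyhc2* had 59.7, 26.9, 39.3 and 36.1 normalized counts at 48 hpf and 182, 143, 191 and 136 at 72 hpf (4.04-fold, adjusted p = 1.2e-09). Slow troponin T (*tnnt1*) rose 6.28-fold and *mybpc1* rose 6.35-fold. *prdm1a*, the factor that commits zebrafish slow fibers, fell 2.31-fold from 120.2 ± 4.19 to 51.8 ± 12.1. In the muscle differentiation list 1 of 19 tested genes rose (5.3%) and 3 fell (15.8%). The largest fall was that of *cdkn1ca*, an inhibitor of the cell cycle, from 624, 703, 762 and 693 at 48 hpf to 249.9, 208, 260.1 and 251 at 72 hpf (2.87-fold lower, adjusted p = 7.2e-13).

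Heart genes called were 2 higher and 2 lower of 22 tested (9.1% each way), below the shares over all genes. *tcap* (telethonin, at the sarcomere's Z disc in heart and skeletal muscle) had 40.6, 10.4, 45.9 and 85.6 normalized counts at 48 hpf and 733, 624, 726 and 776 at 72 hpf (15.8-fold, adjusted p = 7.9e-16). The 48 hpf pools spread widely but all were below those of 72 hpf. The myosin light chain gene *myl4* rose 3.41-fold, while *actc1a* fell 1.61-fold and *tpm4a* fell 1.34-fold. The endothelium list had 4 higher and 6 lower of 31 tested, close to the shares over all genes on the higher side. Those lower numbered 3 without pool B of either time and 2 without pool C of 72 hpf. *klf2a*, which blood flow switches on, had 53.8, 32.1, 29.5 and 24.8 at 48 hpf and 201, 138, 186 and 89.1 at 72 hpf (4.38-fold, adjusted p = 1.1e-08). The venous factor gene *nr2f2* fell 1.65-fold from 609 ± 24.1 to 370.0 ± 19.9.

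Embryonic red cell genes included some of the deepest falls. Of 26 tested erythroid genes 13 fell, 9 by at least 2-fold, and 1 rose. Their summed level was 2993, 3940.3, 3327 and 3517 CPM in the 48 hpf pools and 811, 939.8, 810.2 and 1141 in the 72 hpf pools, 3.72-fold lower and without overlap. The embryonic beta globin gene *hbbe3* (ENSDARG00000038147) had 922, 1077, 1333 and 846 normalized counts at 48 hpf and 1.06, 5.08, 6.85 and 4.81 at 72 hpf. Each 72 hpf pool held only a few reads of this gene, 229.9-fold fewer than at 48 hpf (log2 fold change -7.84 ± 0.22, adjusted p = 1.6e-24). The alpha globin *hbae3* had 11736, 15124, 11766 and 14028 at 48 hpf and 2539, 3057, 2412 and 4141 at 72 hpf (4.33-fold lower, adjusted p = 6.0e-16). The copies *hbae1.1*, *hbae1.2* and *hbae1.3* fell 7.89-fold, 5.63-fold and 4.104-fold, and reads may be divided between them. 2 IDs that share the human symbol *HBE1* also fell, but are outside the list and its summed level. ENSDARG00000087390 fell 4.48-fold from 13939 ± 3403 and ENSDARG00000115405 fell 6.61-fold from 3207 ± 648 normalized counts. The red cell anion exchanger *SLC4A1* (ENSDARG00000012881) had 229, 263, 212 and 217 at 48 hpf and 20.1, 35.5, 28.4 and 28.1 at 72 hpf (8.15-fold lower, adjusted p = 2.2e-15). The globin genes named here thus fell by unequal amounts, from 4.104-fold in *hbae1.3* to 229.9-fold in *hbbe3*. They were named for large falls or many reads, so this range does not describe all globins.

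Of 35 tested genes of blood stem and myeloid cells 4 rose and 5 fell (3 without pool A or B of 48 hpf, or without C or D of 72 hpf), near the shares over all genes. Lysozyme (*lyz*) had 485, 914, 697 and 586 normalized counts at 48 hpf and 139, 90.5, 169 and 147 at 72 hpf, with no overlap (4.94-fold lower, adjusted p = 2.7e-13). The cathepsin gene *ctss2.1* fell 2.81-fold and *lcp1*, the actin bundler of leukocytes, fell 1.93-fold from 50.1 ± 5.25 to 25.9 ± 5.57. The chemokine gene *ccl34b.1* rose 3.70-fold. In the thymus and lymphocyte list 2 of 12 tested genes rose and 2 fell (16.7% each way), among them *tox* (1.55-fold lower), which the brain also expresses. Complement and innate defence genes numbered 6 higher and 9 lower of 25 tested. All 6 that rose did so by at least 2-fold, and 3 of the 9 that fell changed as much. Their summed level was 786 ± 61.0 CPM at 48 hpf and 895 ± 120 at 72 hpf, and the times overlapped. Complement *c5* had 124, 119, 114 and 187 at 48 hpf, with pool D highest, and 57.2, 54.2, 50.9 and 68.2 at 72 hpf (2.35-fold lower). The lectin pathway protease gene *masp1*, outside that list, fell 4.85-fold from 56.8 ± 16.5 to 11.5 ± 5.39.

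The epidermis list had 8 higher and 9 lower of 51 tested, and the keratins 6 and 4 of 21. The periderm keratin *krt4*, 1 of the most read genes, had 60457, 68500.2, 62830.0 and 67667 normalized counts at 48 hpf and 45722, 49279, 43728 and 51232 at 72 hpf, 1.37-fold lower (adjusted p = 6.6e-06). The type I keratin *cyt1* fell 1.19-fold and *cyt1l* did not pass the test (log2 fold change -0.12 ± 0.10). The simple epithelial keratin *krt18a.1* fell 1.52-fold. In the other direction, *krt1-19d* had 75.2, 38.4, 63.3 and 78.9 at 48 hpf and 352, 393, 418 and 402 at 72 hpf (6.16-fold, adjusted p = 4.3e-15). *krt92* rose 3.63-fold from 369.8 ± 31.1 to 1344 ± 191 and *krt15* rose 2.46-fold. The annexin gene *anxa1b* fell from 264, 227, 313 and 393 at 48 hpf to 76.2, 71.9, 58.7 and 217 at 72 hpf, with pool D of 72 hpf far above the other 3 (2.78-fold lower, or 4.34-fold without that pool).

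Fin fold genes numbered 3 higher (8.8%) and 5 lower (14.7%) of 34 tested (3 lower without pool B of 72 hpf), beside 14.4% and 11.6% over all genes. The actinodin gene *and2*, a component of the fin ray precursors, rose 1.44-fold from 2328 ± 194 to 3342 ± 257. *hgd*, an enzyme of tyrosine breakdown, rose 2.46-fold, and the fin mesenchyme factor gene *msx1b* fell from 162, 166, 155 and 156 at 48 hpf to 68.8, 90.5, 82.1 and 85.8 at 72 hpf (1.95-fold lower, adjusted p = 9.6e-06).

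Ionocytes exchange salt and ammonia with the water. Their list, with mucous cells, had 7 higher and 1 lower of 22 tested (4 higher without pool B of 48 hpf). The ammonia channel gene *RHCG* (ENSDARG00000003203) had 2.39, 3.11, 0 and 45.1 normalized counts at 48 hpf and 318, 297, 265 and 429 at 72 hpf. Pool D of 48 hpf stood far above the other 3 but below every 72 hpf pool. The rise was 26.2-fold with all pools (log2 fold change 4.71 ± 0.38) and 178-fold without pool D of 48 hpf. Another ammonia channel gene, *rhbg*, had 383, 393, 417 and 474 at 48 hpf, pool D highest, and 1525, 1613, 1858 and 1691 at 72 hpf (4.01-fold, adjusted p = 6.6e-17). The sodium pump gene *atp1a1a.2* fell 1.502-fold from 217 ± 18.4 to 144 ± 34.2. *agr2*, of mucus-secreting cells, did not pass the test (656 ± 195 and 752 ± 109).

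Hatching gland genes had 4 higher and 5 lower of 17 tested, and their summed level was 2.33-fold lower at 72 hpf. The hatching enzyme *he1.1* had 3109, 2759.7, 3894 and 3772 normalized counts at 48 hpf and 444, 55.0, 247 and 878 at 72 hpf. The 72 hpf pools differed from each other by more than 10-fold, from B to D, yet all lay below 48 hpf (8.30-fold lower, or 13.8-fold without pool D of 72 hpf, adjusted p = 6.2e-09). Its near-identical copy *he1.2* had 2493, 2119, 1783 and 1947 at 48 hpf and 395, 30.5, 185 and 343 at 72 hpf (8.798-fold lower), with pool B again the lowest. Members of the list that rose are not all known from the hatching gland. *scpp5*, a secretory calcium-binding phosphoprotein gene of fish teeth and scales, had 1.19, 2.07, 2.18 and 1.13 at 48 hpf and 143, 174, 121 and 148 at 72 hpf (88.2-fold, adjusted p = 3.3e-17). *hce2l1*, named for a hatching enzyme, had no read at 48 hpf and 11.7, 2.54, 2.93 and 12.8 at 72 hpf, at least 9.0-fold higher.

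Inner ear and lateral line genes numbered 7 higher and 3 lower of 29 tested. Of the parvalbumins read there, *pvalb8* rose 3.67-fold from 179 ± 27.5 to 656 ± 84.7, and *pvalb9* fell 1.97-fold from 3650.1 ± 678 to 1855 ± 276. Pigment cell genes fell more often, 11 of 28 tested against 3 that rose. Those that fell included genes of yellow xanthophores. *gch2*, the first enzyme of pteridine synthesis, had 2535, 2899, 2636 and 2588 normalized counts at 48 hpf and 1398, 1237, 1093 and 1409 at 72 hpf (2.07-fold lower, adjusted p = 1.1e-10), *aox5* fell 2.99-fold and the transporter gene *slc2a11b* fell 2.29-fold. A purine gene of silvery iridophores, *pnp4b*, had 0, 1.04, 1.09 and 0 at 48 hpf and 50.8, 57.5, 44.0 and 24.9 at 72 hpf, 79.8-fold higher (adjusted p = 5.8e-10). The size of this rise rested on few reads at 48 hpf. The notochord list had 7 higher and 1 lower of 24 tested, and its largest rise was that of *mia*, of a family secreted by cartilage, by 4.16-fold. Somite and segmentation genes numbered 0 higher and 2 lower of 19 tested, *ripply1* among those lower (1.75-fold).

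**Figure D4:**
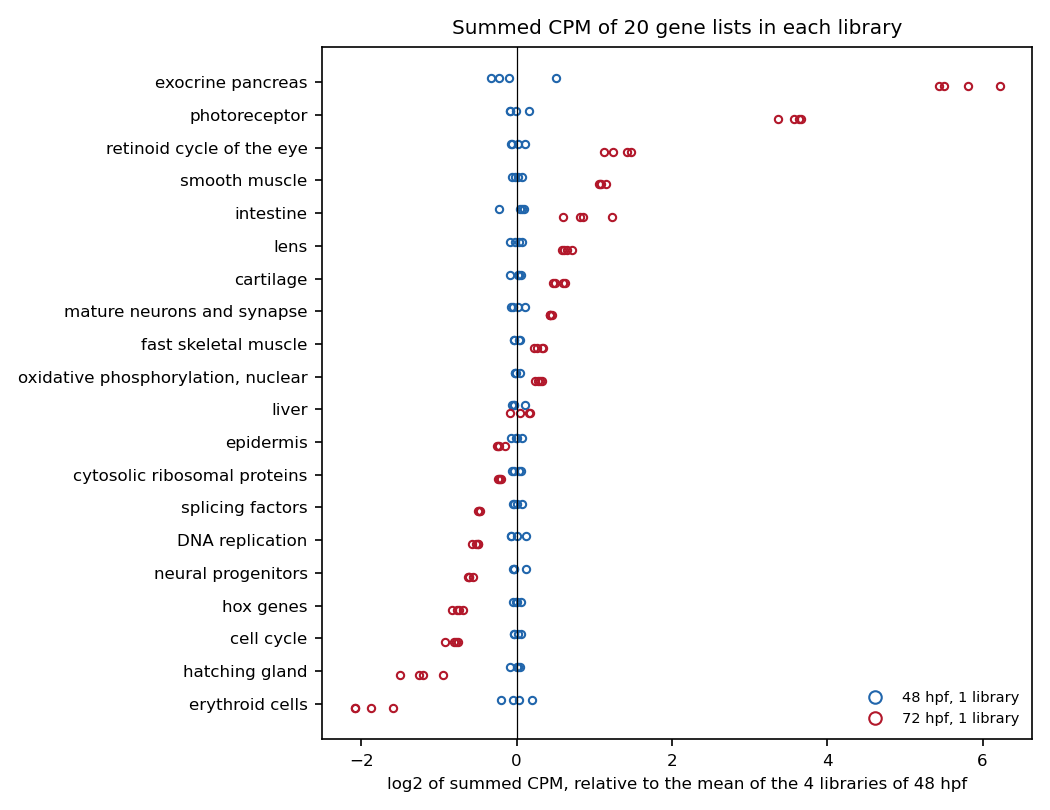
Summed CPM of 20 gene lists in each of the 4 control pools of 48 hpf (blue) and of 72 hpf (red), as log2 relative to the mean of the 48 hpf pools (x axis). Exocrine pancreas and photoreceptor sums lie farthest to the right, erythroid cells (3445 to 926 CPM) farthest to the left, and the liver sums of the times overlap.

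The study is about ligands of the aryl hydrocarbon receptor (AHR), so the receptor and its targets were described in full. Of 18 matched genes of this battery 12 were tested, 3 rose and 1 fell. *cyp1a*, the classical target, had 28.7, 34.2, 36.0 and 27.04 normalized counts at 48 hpf and 39.2, 25.4, 24.4 and 28.1 at 72 hpf, groups that overlapped (log2 fold change -0.11 ± 0.29, adjusted p = 0.83). The receptor gene *ahr2* had 51.4, 60.1, 61.1 and 37.2 and 54.0, 51.6, 57.7 and 67.4 (adjusted p = 0.72). *arnt2*, of the ARNT family of dimer partners, fell 1.36-fold, from 655, 688, 658 and 745 at 48 hpf to 486, 435, 498 and 599 at 72 hpf (adjusted p = 0.002). The other cytochromes of the family did not pass the test. *cyp1b1* had 24.7 ± 10.198 and 15.4 ± 8.71 (adjusted p = 0.22), *cyp1d1* had 38.8 ± 6.85 and 41.1 ± 6.65, and *cyp1c2* had 4.01 ± 3.57 and 6.64 ± 1.07. Neither did the repressor of the pathway *tiparp* (131 ± 18.3 and 119 ± 13.7), the quinone reductase *nqo1* (194 ± 40.4 and 209 ± 44.9) nor *foxq1b* (74.7 ± 23.0 and 104 ± 24.2). The glucuronosyltransferase gene *ugt1a1* had 49.0, 37.3, 48.04 and 42.8 at 48 hpf and 279.6, 269.9, 312 and 229 at 72 hpf, the largest change of the battery (6.16-fold, log2 fold change 2.62 ± 0.16, adjusted p = 5.8e-15). Another ID, with the human symbol *FOXQ1* (ENSDARG00000030896), rose 2.0-fold. The sulfotransferase gene *sult6b1* rose 1.28-fold (adjusted p = 0.019), a call lost without pool B of 48 hpf (adjusted p = 0.075), pool C of 72 hpf (0.088) or pool D of 72 hpf (0.055).

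Xenobiotic metabolism as a whole rose in 25 of 53 tested genes, 15 by at least 2-fold, and fell in 1, and its summed level was 1.47-fold higher at 72 hpf. The glutathione transferase gene *gsta.1* had 487, 525, 503 and 539 normalized counts at 48 hpf and 1359.8, 1883, 1444 and 999.7 at 72 hpf (2.77-fold, adjusted p = 3.7e-11). The sulfotransferase *sult1st6* went from 2 reads in 1 pool to 13.1 ± 2.02, and a further sulfotransferase, *sult3st3*, had no read at 48 hpf and 36.0, 44.0, 39.1 and 25.7 at 72 hpf, at least 43.5-fold higher.

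Clock genes rose in 15 of 37 tested and fell in 1. The times are 24 h apart and the embryos were kept in the dark. The clock repressor *nr1d1* had 3.58, 2.07, 2.18 and 1.13 normalized counts at 48 hpf and 61.4, 51.6, 64.5 and 34.5 at 72 hpf (23.8-fold, log2 fold change 4.57 ± 0.43, adjusted p = 3.2e-10). Its relative *nr1d2a* had 71.7, 107, 61.1 and 107 and 399, 363, 496 and 348 (4.62-fold). The period gene *PER1* (ENSDARG00000056885) had 0, 4.15, 6.55 and 3.38 at 48 hpf and 64.6, 46.5, 47.9 and 41.7 at 72 hpf (13.9-fold), and the times of all 3 were apart. *nfil3-5*, a repressor of clock output, fell 1.44-fold.

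Heat shock and endoplasmic reticulum stress genes had 5 higher (14.3%) and 2 lower (5.7%) of 35 tested (3 higher without pool D of 72 hpf). These shares were not above the 14.4% and 11.6% over all genes. The small heat shock protein gene *hspb9* had 162, 140.0, 170.3 and 375 normalized counts at 48 hpf, with pool D far above the others, and 664, 754, 692 and 1009 at 72 hpf (3.69-fold, adjusted p = 8.5e-10). *ddit3*, a stress-responsive transcription factor, rose 2.61-fold from 18.2 ± 4.84. The chaperone genes *hsp90ab1* and *pdia3* fell 1.31-fold and 1.52-fold. Antioxidant genes numbered 8 higher and 3 lower of 36 tested. The mitochondrial superoxide dismutase *sod2* rose 2.303-fold from 61.7 ± 9.09 to 142 ± 13.9 and *gpx3* rose 2.301-fold. The selenoprotein P genes parted, *selenop* rising 1.3-fold and *selenop2* falling 1.75-fold, and the peroxiredoxin *prdx5* fell 1.66-fold. In the p53 and DNA damage list 6 of 24 tested genes rose and 0 fell. The cell cycle inhibitor *cdkn1a* (p21) went from 5.60 ± 4.81 to 24.2 ± 5.13, 4.35-fold, or 7.30-fold without pool D of 48 hpf. *GADD45B* (ENSDARG00000027744) rose 3.59-fold and the abundant *ccng1* did not pass the test (log2 fold change 0.18 ± 0.09).

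Patterning genes fell more often than they rose. The hox list had 15 of 32 tested lower and 0 higher (median log2 fold change -0.74). Its most read member *hoxb3a* had 742, 783, 736 and 735 normalized counts at 48 hpf and 382, 393, 355 and 428 at 72 hpf (1.92-fold lower, adjusted p = 6.9e-09). The groups lay far apart. The more posterior *hoxb9a* and *hoxa9a* fell 2.19-fold and 2.49-fold, and the anterior *hoxc1a* fell 2.95-fold. Retinoic acid genes had 1 higher, the carrier *rbp4*, and 7 lower of 20 tested. The degrading enzyme *cyp26c1* fell 3.08-fold, with groups that overlapped, and the binding protein *CRABP1* (ENSDARG00000045926) fell 2.13-fold. Genes of the FGF, Wnt, BMP and hedgehog pathways numbered 1 higher and 7 lower of 32 tested. The inhibitor *smad7* fell 2.398-fold from 164 ± 12.1 to 68.3 ± 15.

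The machinery of gene expression fell by small amounts in many genes. Of 80 tested genes named as cytosolic ribosomal proteins 46 fell, none by 2-fold, and 2 rose (median log2 fold change -0.24). Their summed level was 197734, 195749, 183290.4 and 186925 CPM at 48 hpf and 165563, 165103, 163526 and 162217 at 72 hpf, and the times did not overlap. The list was drawn by symbol pattern and holds a few genes that are not ribosomal proteins of the cytosol. *rplp2l* fell 1.51-fold and *rps21* fell 1.39-fold, while *rps27l*, a p53 target in mammals, rose 1.43-fold. Splicing factors fell in 33 of 55 tested and rose in 1. Their summed level was 4868 ± 181 CPM at 48 hpf and 3477 ± 32.8 at 72 hpf. *hnrnpl* fell 2.08-fold and *hnrnpa0a* 1.94-fold. Proteasome genes had 17 of 43 tested lower, *psmd1* of the regulatory cap by 1.48-fold, and 2 higher, of which *psme1*, an activator of the immunoproteasome, rose 2.78-fold. Translation factors numbered 14 lower and 3 higher of 51 tested. The elongation factor *eef1a1l1* fell 1.26-fold from 39525 ± 2226 to 31328 ± 1234, and *eif4ebp3*, a repressor of cap-dependent translation, rose 2.19-fold.

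Mitochondrial energy genes rose by small amounts. Of 83 tested nuclear genes of oxidative phosphorylation 34 rose, 3 by at least 2-fold, and 0 fell. Without pool C of 72 hpf 22 rose. Summed, they were at 16084, 15462, 15516 and 15454 CPM at 48 hpf and 19517, 18835, 19239 and 18349 at 72 hpf. The cytochrome oxidase subunits *cox7a1*, *cox4i2* and *cox8b*, which in mammals are tissue-specific forms, rose 2.79-fold, 2.75-fold and 2.47-fold, and the abundant ATP synthase subunit *atp5mc3b* rose 1.23-fold. Mitochondrial genome transcripts *MT-ATP6* (ENSDARG00000063911) and *MT-CO3* (ENSDARG00000063912), among the 10 most read genes, rose 1.45-fold and 1.27-fold. Mitochondrial ribosomal protein genes numbered 6 higher, *mrpl9* among them (1.74-fold), and 1 lower of 75 tested, below the shares over all genes. Claudins, the seals of tight junctions, rose in 9 of 21 tested and fell in 0. *cldn15la* had 64.5, 71.5, 110.3 and 76.6 normalized counts at 48 hpf and 392, 387, 541 and 332 at 72 hpf (5.098-fold, adjusted p = 1.3e-13). The abundant *cldni* had 1624 ± 124 and 1619 ± 113 (adjusted p = 0.98).

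Outside the lists, the largest falls among named genes included lysosomal enzymes. The cathepsin gene *ctslb.4* had 166, 146, 199 and 198 normalized counts at 48 hpf, none in 3 of the 72 hpf pools and 9.63 in pool D (65.5-fold lower, or 100.1-fold with libraries thinned to 1 depth). The acid phosphatase *acp5a* had 419, 685, 278 and 566 at 48 hpf and 19.1, 10.15, 34.2 and 19.3 at 72 hpf, with no overlap (23.96-fold lower, log2 fold change -4.58 ± 0.25, adjusted p = 1.8e-16). The lipase *ABHD6* (ENSDARG00000060756) fell 8.22-fold from 596 ± 78.3 to 72.4 ± 8.72. *oacyl*, an acyltransferase gene, fell 5.53-fold from 50.01 ± 10.02. The zona pellucida gene *zp3e*, of the egg coat family, had 2.39, 9.33, 5.46 and 4.51 at 48 hpf and no read at 72 hpf, at least 7.94-fold lower. Of the other most read genes, the fast myosin light chain *MYL11* (ENSDARG00000053254) rose 1.16-fold, and the long noncoding RNA *malat1* did not pass the test (log2 fold change 0.039 ± 0.07). The most read ID, ENSDARG00000080337, is given no name here, and its pools held 522424, 385109, 808289 and 739066 normalized counts at 48 hpf and 642339.6, 520754, 639919 and 588598 at 72 hpf, which overlapped.

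The same step was then read in embryos of other plates that share no library with these controls, at the lowest concentration of 6-methylbenzo[a]pyrene (6-MBaP) and of benzo[a]pyrene (BaP), 0.133 µM. In a test of the difference between the time changes, 0 of 16970 genes differed for 6-MBaP and 0 of 17031 for BaP (edgeR interaction, adjusted p at or under 0.05). An unadjusted p under 0.05 was seen for 865 and 762 genes, close to the share of 0.05 that passes when no gene differs. DESeq2 called 0 and 1 at the adjusted threshold. Without pool D of the 48 hpf controls, 6 genes differed for 6-MBaP. Of the 2309 genes that rose in controls, 1723 (74.6%) also rose with 6-MBaP, 70.9% of the 2430 called higher there among 16015 tested. Of the 1859 that fell, 1342 (72.2%) also fell, 64.6% of 2078. With BaP, where 16128 genes were tested, 1806 (78.2% of the controls' list, 69.0% of 2617) rose and 1427 (76.8%, and 62.6% of 2280) fell in both. Of the 1289 genes at least 2-fold higher in controls, 75.1% were also so with 6-MBaP and 75.6% with BaP. For the 407 at least 2-fold lower the shares were smaller, 58.0% and 51.8%. Genes called in opposite directions numbered 0 for 6-MBaP and 1 for BaP. The log2 fold change of *opn1lw2* was 7.07 in controls, 6.66 with 6-MBaP and 7.31 with BaP. That of *hbbe3* was -7.84, -6.85 and -7.28, that of *prss59.2* was 8.59, 8.01 and 8.04, and that of *he1.1* was -3.05, -2.75 and -2.92. Other named genes were less alike. *pnp4b* had 6.32, 3.64 and 2.902 and *serpinf2a* 6.71, 4.17 and 5.19, both on few reads in the 48 hpf controls. *RHCG* (ENSDARG00000003203) went the other way, with 4.71, 6.22 and 6.36. *cyp1a* had -0.11, 0.44 and 0.63, and passed the test of the times with BaP alone (adjusted p = 0.001). A test that finds no gene does not show that the time changes were alike. The self-test was run on the control comparison alone, and what the interaction could have found at this size was not measured.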

How the data were processed

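Pools of whole embryos were read by BRB-seq, a multiplexed 3′ method. Library construction, sequencing, mapping and demultiplexing were done by a sequencing provider, and the authors deposited whole-number counts per Ensembl gene ID, unnormalized, for 80 libraries. The aligner, genome build, annotation release, strand setting and use of molecular identifiers are not given in the sources used here. The labels and the methods differ on the start of exposure (6 and 7 hpf), which does not enter the control comparison.

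Of 32520 gene IDs in the table, 24147 had a zebrafish symbol in the reference tables, 16608 directly and 7539 through a human counterpart. Members were the 8 control columns, chosen by label. A gene entered the test if 2 or more libraries each held 5 reads or more of it, the filter of the authors, which kept 15992 genes and left out 16528. Counts were scaled by TMM and tested with the quasi-likelihood F test of edgeR 4.0.16 in R 4.3.3, Benjamini-Hochberg adjusted over all genes tested, at 0.05. The members and the 57 lists were chosen with earlier results of these data known. Of 1839 members given in 47 lists by symbol, 1512 were matched, and 10 lists were drawn by symbol pattern. CPM are counts scaled to a library total of 1000000, without the TMM factors. For a gene without a read at a time, the fold was bounded with a floor of 3 reads over its 4 pools.

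Genes named were those of the 25 greatest increases and the 25 greatest decreases, called and without overlap between the times. They had a mean of at least 50 normalized counts in the higher group and a symbol. Clone and locus placeholders, such as symbols starting si: or zgc:, were left out. To these came the 5 most read genes absent at either time, by the same rule on symbols. From each list came the 3 most read and the 3 largest called changes each way. Every tested member of the AHR battery and the 10 most read genes of each time were added. This gave 399 genes, of which 231 are in the text; some others are not reported here. The test was tried on simulated data, with 200 of 15992 genes changed, and found 43 of 50 at 4-fold and 48 of 50 at 8-fold, with 5 unchanged genes called. These shares do not carry over to the control comparison, where 4168 genes were called. No library was a duplicate, since pools of a time differed by more than sampling noise. Chi-square per degree of freedom, summed over genes, was 4.63 to 16.7 between them. The most read genes, such as ENSDARG00000080337, weigh heavily in this sum, which thus does not measure how far most genes differed. Alternatives were RLE, upper quartile and total count scaling, DESeq2 1.42.0, no filter, filterByExpr, the pool letter as a block, all 80 libraries in 1 fit, thinning to 1 depth, glmTreat and leaving out each library. Promoter sequences and motifs were not analysed here. Of the other libraries, only the 16 at 0.133 µM of 6-MBaP and BaP were used, beside the fit of all 80.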

Additional observations from a re-analysis of the deposited data

Results flagged for a closer look

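In each group of 4 pools, a value was singled out where its gap to the nearest other pool, divided by the range of the group, was above Dixon's critical value for 4 samples. Groups checked were named genes with at least 20 normalized counts in the highest pool, the summed CPM of lists and the total counts. Summed CPM were scaled to the library total alone, without the TMM factors used for genes. At 48 hpf these factors were 0.995, 1.022, 0.977 and 0.989 for pools A to D. The lists singled out thus depend on this scaling, and the check was not repeated with TMM factors. A group such as that of *RHCG* (ENSDARG00000003203) at 48 hpf thus entered through the pool then singled out. Of 514 groups, 28 held such a pool, and chance gives about 1 in 20 groups. What set these pools apart was not tested. Values of genes below are normalized counts, with the range of the other 3 pools in parentheses.

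Among the 48 hpf controls, pool D was the farthest from the others in 6 genes. Its value was 5018 for *tfa*, transferrin (2634 to 3007), 187 for complement *c5* (114 to 124), 45.1 for the ammonia channel *RHCG*, ENSDARG00000003203 (0 to 3.11), 245 for the sodium pump gene *atp1a1a.2* (206 to 210.4), 375 for the small heat shock gene *hspb9* (140.0 to 170.3) and 50.7 for *mrpl9* (30.1 to 33.5). These were all high values, and the summed CPM of retinoic acid genes was low in the same pool, at 566 (608 to 616). Pool C was low in the progenitor genes *sox2*, at 286 (344 to 352), and *neurog1*, at 56.8 (77.6 to 78.9), and high in *rlbp1b*, at 250.0 (175 to 186). Pool B was high in the Notch ligand *dlb*, at 392 (315 to 325), and in *hoxb3a*, at 783 (735 to 742), and low in *gpx3*, at 14.5 (32.8 to 34.9). The summed CPM was also highest in pool B for liver genes, at 4433 (3939 to 4012), for neural progenitors, at 2594 (2313 to 2329), and for thymus and lymphocyte genes, at 377 (338 to 343). Pool A held 4.78 for *otos* (27.3 to 29.3), 219.8 for *pvalb8* (159 to 169) and a summed 16084 CPM for nuclear oxidative phosphorylation genes (15454 to 15516).

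Among the 72 hpf controls, pool D was high in *anxa1b*, at 217 (58.7 to 76.3), and in the muscle gene *mybpc2b*, at 314 (224 to 236). It was low in *hmgn2*, at 1493 (1933 to 2012), and in *PRPH2*, ENSDARG00000038018, at 240.7 (271 to 275). Its summed CPM was highest for muscle differentiation, at 651 (547 to 556), for heat shock and endoplasmic reticulum stress, at 3642 (3164 to 3228), and for translation factors, at 14154 (13222 to 13372). Pool C was high in smooth muscle *acta2*, at 746 (491 to 527), and in *cox7a1*, at 53.8 (36.4 to 38.1).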

How the results depend on the processing

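Under the alternatives for scaling, filter, tool and depth the counts stayed within 1.5 times of those reported, with 2134 to 2394 genes higher, 1747 to 1968 lower, 1054 to 1356 at least 2-fold higher and 354 to 431 at least 2-fold lower. These settings called 92.4% to 99.8% of the 4168 genes again, all in the same direction. glmTreat called 570 genes higher and 82 lower in place of the 2-fold counts. Leaving out each library in turn gave 2019 to 2161 genes higher, 1522 to 1703 lower, 1179 to 1283 at least 2-fold higher and 354 to 396 at least 2-fold lower, from fewer samples. The median of all genes stayed between -0.0057 and 0.023 on the log2 scale.

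The pool letters were taken as names and not as a pairing. Deviations of same-letter pools correlated at 0.009 to 0.026. Pools A and C of 48 hpf were closest to another letter, and pools B and D to their own. Correlations across letters were also small (-0.048 to 0.045), so this check cannot decide whether letters pair pools. With the letter as a replicate block, 2295 genes were higher, 1858 lower, 1247 at least 2-fold higher and 369 at least 2-fold lower, and the interaction counts were 0 and 0.

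For the difference between time changes, leaving out each library gave 0 to 6 genes for 6-MBaP, with 6 without pool D of the 48 hpf controls, and 0 to 1 for BaP. DESeq2 gave 1 gene for BaP. Of 196 called genes in the text with a fitted value, 2 lost the call under some alternative and 12 moved by over 1.5-fold, each as given in the report. Of 57 counts of at least 5 called genes in a list, 11 moved by over 1.5 times. With filterByExpr, which tests fewer genes, 8 exocrine pancreas and 5 inner retina genes were higher. The others moved when 1 library was left out, as given in the report, and 2 of these also with total counts alone (3 cartilage genes lower) or all 80 libraries (3 blood stem and myeloid genes lower). The median of 6 lists (liver, heart, blood stem and myeloid cells, complement and innate defence, epidermis, hatching gland) changed sign. With every library thinned to the smallest total, 2231 genes were higher and 1804 lower, and what more depth would add was not measured.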
